A study of Mus musculus with 15 samples.

Results

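The 10 genes described here encode inflammasome sensors and the proteins that act downstream of them: the sensors Nlrp3, Nlrc4, Aim2, Naip2, Naip5 and Nlrp1b, the adaptor Pycard, the caspases Casp1 and Casp4, and the pore protein Gsdmd. They were taken as a named list and matched by symbol to the Ensembl identifiers of the deposited count table, in which they are 10 of 19456 genes. RNA sequencing was performed on 15 libraries from male C57BL/6 wild-type mice of 8 to 10 wk, without any genetic change or treatment. Ly6Chi monocytes of the peripheral blood gave 3 libraries, and small intestinal macrophages gave 4 for each of the subsets Tim-4-CD4-, Tim-4-CD4+ as well as Tim-4+CD4+. Tim-4 is a receptor for apoptotic cells, and the study used it with CD4 to divide resident gut macrophages by how long they are maintained locally. Every library held cells pooled from 3 mice, except monocyte replicate 2 with 4 mice, and the gut libraries came from 4 sorts, so that libraries of different subsets may share a sort and its mice. The labels do not say which do. The spread between libraries is between pools rather than between single animals.

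Inflammasomes are cytosolic complexes with which macrophages and other cells answer microbial products and cell damage. A sensor that meets its trigger can recruit the adaptor ASC, encoded by Pycard, which gathers and activates caspase-1, though not every sensor depends on ASC. Caspase-1 then matures interleukin-1β and interleukin-18 and cleaves gasdermin D, whose fragments form pores in the plasma membrane. NLRP3 answers potassium efflux and many other disturbances, AIM2 binds double-stranded DNA, NAIP5 and NAIP2 bind flagellin and parts of bacterial secretion systems and then engage NLRC4, NLRP1B is set off by certain pathogen proteases, and caspase-11, encoded by Casp4 in mice, binds lipopolysaccharide directly. Gut macrophages lie next to a dense microbiota, and these pathways have been studied there for their part in defense and in inflammation.

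All 10 genes were well covered, with 1660 to 46251 reads per gene and library, and all passed the filter on low counts. Total counts ran from 39388763 to 151510641 per library. Levels are given as CPM, the reads of a gene as a share of its library, scaled between libraries by the trimmed mean of M-values (TMM). Differences are log2 fold changes with their standard error (SE) from a quasi-likelihood test in edgeR, whose p-values were adjusted (Benjamini-Hochberg) over 15802 genes. A gene is said to have risen or fallen where its adjusted p was under 0.05, and "not called" where it was not. The labels fitted the markers: the summed level of 4 monocyte markers (Ly6c2, Ccr2, Plac8 and Chil3) was 6240 to 8010 CPM in the monocyte libraries, 553 to 827 in Tim-4-CD4-, 74.7 to 132 in Tim-4-CD4+ and 12.6 to 24.2 in Tim-4+CD4+ macrophages. By contrast, 6 macrophage markers (Cx3cr1, Fcgr1, Mertk, C1qa, Adgre1 and H2-Ab1) summed to at least 17018 CPM in every gut library and at most 1457 in blood. H2-Ab1, an MHCII gene, held most of the gut sum, at means of 12168 to 13691 CPM, and gut cells were sorted on MHCII. Ly6c2 was tied to the sort as well: monocytes were taken as Ly6Chi, and Ly6C was used to exclude monocytes from the gut cells. In each subset 5 of the 6 macrophage markers were called higher. Fcgr1 was at means of 279 CPM in monocytes and 300, 274 and 268 in the subsets. All 5 B and plasma cell, 5 mesenchymal and 3 endothelial markers were also called higher in each subset, and 4 of 4 tested neutrophil markers lower.

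In GRCm38 with GENCODE annotation, Nlrp3 lies at chr11:59541568-59566956 on the plus strand and Nlrp1b on the same chromosome at chr11:71153102-71230733 on the minus strand. Naip2 (chr13:100144063-100202092) and Naip5 (chr13:100211739-100246323) are neighbors on the minus strand, and Casp1 (chr9:5298517-5307265) and Casp4 (chr9:5308828-5336783) are neighbors on the plus strand. Nlrc4 lies at chr17:74425438-74459142 (minus), Aim2 at chr1:173350879-173466040 (plus), Pycard at chr7:127989708-127993867 (minus) and Gsdmd at chr15:75862327-75867408 (plus). The Naip genes are close copies of each other: 13.4% of the 65-base windows of Naip2 and 28.0% of those of Naip5 also occurred in transcripts of other genes. The genes that shared the most windows were all of the Naip family. Reads that lie wholly in these stretches cannot be assigned, and only uniquely mapped reads were counted. A read may still be placed by its mate, so these shares do not give the share of reads lost. How far the Naip2 and Naip5 counts are affected was not measured. Pycard shares 485 exonic bases with Gm45205 on the opposite strand, and whether reads were counted by strand is not given in the sources used here, so reads of this stretch cannot be told apart.

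The DNA just before the start annotated by RefSeq is shown for Nlrp3 and Nlrc4, which rose from blood to gut, and for Naip2 and Naip5, which fell together. The sequences are from RefSeq (GRCm38.p6), 5' to 3' on the strand of the gene, cover only bases upstream of annotated exons, and carry capitals where the letters AGGAAGT, the core to which ETS factors such as PU.1 bind, occur on either strand. The stretches are chr11:59541319-59541567 (plus) for Nlrp3, chr17:74459143-74459358 (minus) for Nlrc4, chr13:100202123-100202372 (minus) for Naip2 and chr13:100247337-100247586 (minus) for Naip5. The RefSeq starts of Naip2 and Naip5 lie upstream of the GENCODE starts given above, so these stretches do not adjoin the spans printed for the genes.
Nlrp3: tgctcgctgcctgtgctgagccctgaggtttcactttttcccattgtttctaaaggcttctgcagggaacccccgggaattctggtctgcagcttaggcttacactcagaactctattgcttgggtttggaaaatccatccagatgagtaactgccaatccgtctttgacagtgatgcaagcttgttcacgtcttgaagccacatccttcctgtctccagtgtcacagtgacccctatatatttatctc
Nlrc4: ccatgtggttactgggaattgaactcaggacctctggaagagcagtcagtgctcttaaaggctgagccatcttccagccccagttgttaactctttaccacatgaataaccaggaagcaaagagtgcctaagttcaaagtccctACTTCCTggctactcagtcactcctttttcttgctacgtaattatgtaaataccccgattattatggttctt
Naip2: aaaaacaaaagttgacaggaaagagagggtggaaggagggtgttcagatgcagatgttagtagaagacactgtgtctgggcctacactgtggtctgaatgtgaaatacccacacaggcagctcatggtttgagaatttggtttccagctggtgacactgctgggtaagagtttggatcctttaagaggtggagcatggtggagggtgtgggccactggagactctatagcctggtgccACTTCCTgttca
Naip5: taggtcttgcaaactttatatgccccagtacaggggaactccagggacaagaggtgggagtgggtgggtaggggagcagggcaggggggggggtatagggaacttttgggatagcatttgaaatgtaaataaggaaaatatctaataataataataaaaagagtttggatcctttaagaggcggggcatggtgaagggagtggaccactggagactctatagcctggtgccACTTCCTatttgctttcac
Naip2 and Naip5 hold the match at nearly the same place, 5 and 12 bases from the end of the stretch, and the longest run of letters they share is 34 bases. In the 300-base windows around the start, 6 of the 9 genes with a window held AGGAAGT (Aim2, Naip2, Naip5, Nlrc4, Nlrp1b and Pycard), against 9.35% of 32851 RefSeq windows. A gene counted if any of its windows held the letters, whereas the share is per window, so count and share are not directly comparable. These 6 genes include some that rose and some that fell. The interferon-stimulated response element (in 3.44% of windows), the NF-κB site (1.47%), TGANTCA (AP-1, 7.81%) and TTCNNNGAA (gamma-activated site, 8.3%), each searched on both strands, were found in the windows of 0 of the 9 genes.

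The first comparison asks how the inflammasome genes differ between gut macrophages and the Ly6Chi monocytes that can replenish them. In all 3 macrophage subsets the sensors Nlrp3, Nlrc4 and Nlrp1b were higher than in monocytes, whereas Naip2, Naip5, Pycard, Casp1 and Casp4 were lower. Gsdmd was lower in both Tim-4- subsets, and Aim2 was not called in any. In Tim-4-CD4- macrophages 9 of the 10 genes were called, 3 higher and 6 lower, where 65.4% of all genes tested were called. In Tim-4-CD4+ macrophages 9 were called (3 higher, 6 lower; background 69.8%), and in Tim-4+CD4+ macrophages 8 (3 higher, 5 lower; background 70.9%). Since most genes differed between blood and gut, these counts say little by themselves, and the direction and size of each difference carry the description. The libraries of the groups did not overlap for 8 genes (3 above and 5 below monocytes) in the Tim-4-CD4- subset, where this held for 67.6% of all genes (36.7% above, 30.9% below). They did not overlap for 9 (3 and 6) in the Tim-4-CD4+ subset (70.1%; 37.9% and 32.2%), nor for 8 (3 and 5) in the Tim-4+CD4+ subset (68.7%; 37.5% and 31.2%). The median log2 fold change of the 10 genes was -0.44, -0.42 and -0.35 in the 3 subsets in the order above, against 0.08, 0.11 and 0.10 over all genes tested.

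**Figure D1:**
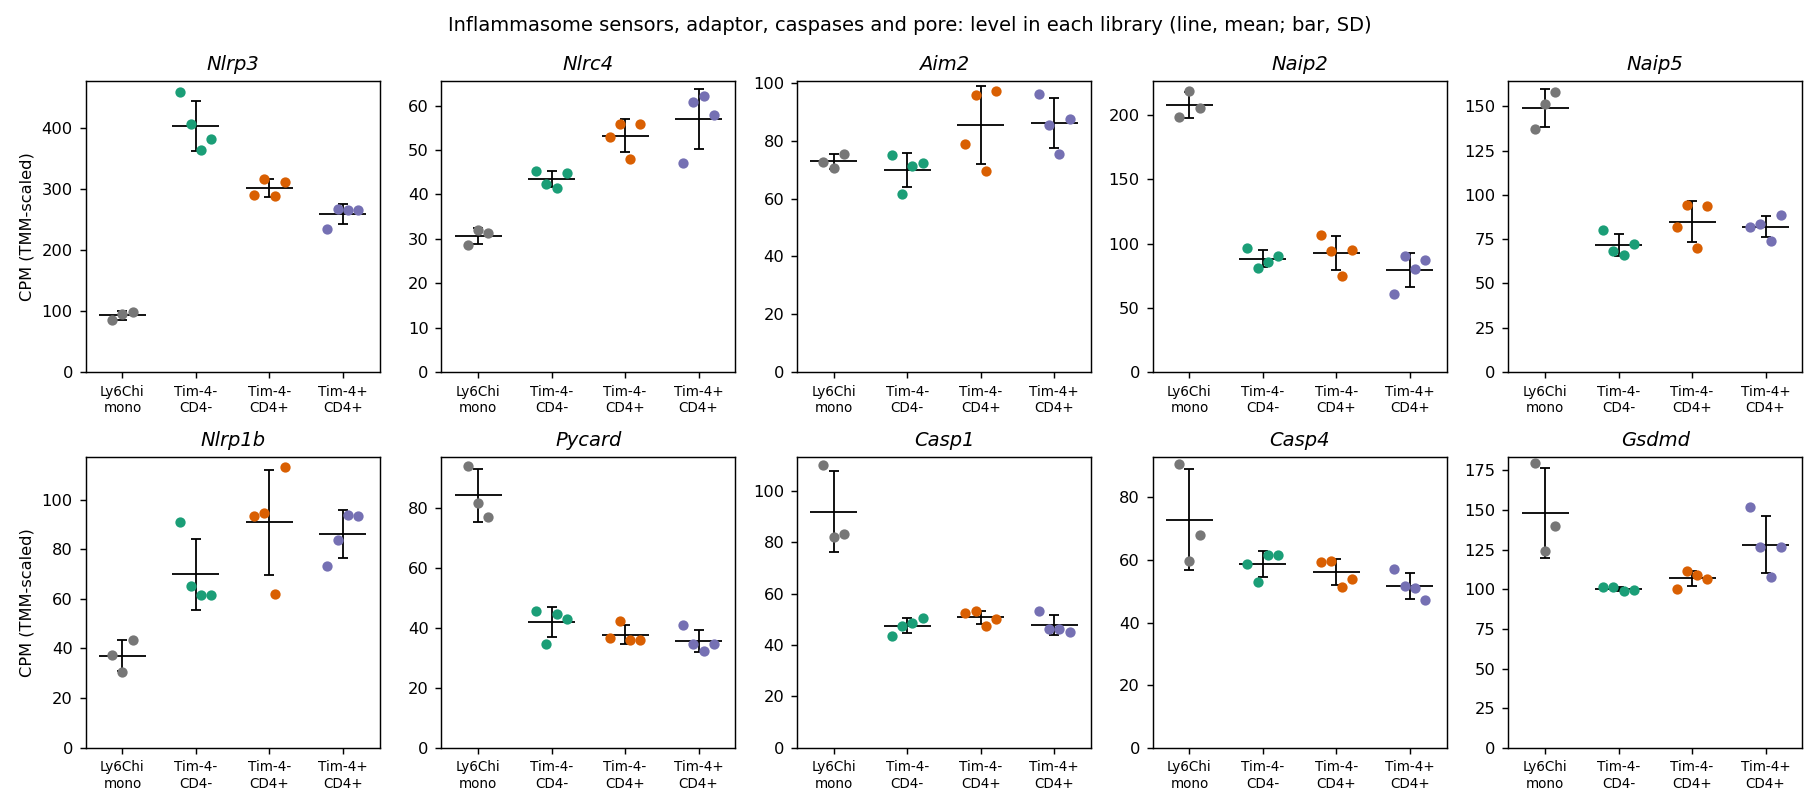
Level of each of the 10 genes in each library, in TMM-scaled CPM on linear axes from 0. Points are libraries, lines are group means and bars are SD. Nlrp3, Nlrc4 and Nlrp1b lie above the monocytes in all gut libraries, Naip2, Naip5, Pycard and Casp1 lie below them, and Nlrp3 is highest in the Tim-4-CD4- subset and lowest where cells are Tim-4+CD4+.

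Among the sensors, Nlrp3 changed most. It was at 84.9, 95.2 and 98.2 CPM in the monocyte libraries. In the gut it was at 458, 407, 363 and 382 CPM in the Tim-4-CD4- libraries, at 290, 317, 288 and 312 in those of the Tim-4-CD4+ subset, and at 234, 268, 266 and 266 where cells were Tim-4+CD4+. The 4 groups did not overlap, and every gut library held more than 2 times the highest monocyte level. Nlrp3 was 4.34-fold higher than in monocytes in Tim-4-CD4- macrophages (log2 fold change 2.12 ± 0.10 SE, adjusted p = 1.25e-11), 3.25-fold higher in Tim-4-CD4+ (1.70 ± 0.10, 1.41e-10) and 2.79-fold higher in Tim-4+CD4+ macrophages (1.48 ± 0.10, 7.34e-10). Genes of the response to tissue dissociation moved the same way: the summed level of Fos, Fosb, Jun, Junb, Egr1, Hspa1a, Hspa1b and Dusp1 was 471 to 660 CPM in monocytes and 22267 to 32365 in macrophages, and 8 of 8 rose in each subset. Gut tissue was digested with enzyme and blood was not, and the part of this in the Nlrp3 difference was not tested.

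Nlrc4, which carries the signal of the NAIP sensors, was at 28.5, 32.0 and 31.3 CPM in monocytes. It was at 45.2, 42.4, 41.4 and 44.8 CPM in Tim-4-CD4-, at 53.0, 56.0, 48.0 and 55.8 in Tim-4-CD4+, and at 47.2, 60.8, 62.1 and 58.0 in Tim-4+CD4+ libraries. Each gut library lay above each blood library. The rise was 1.42-fold in Tim-4-CD4- (log2 0.51 ± 0.10, adjusted p = 0.00026), 1.74-fold in Tim-4-CD4+ (0.80 ± 0.10, 1.99e-06) and 1.86-fold in Tim-4+CD4+ macrophages (0.90 ± 0.10, 4.74e-07). Nlrp1b had a wider spread. It was at 37.3, 30.6 and 43.4 CPM in monocytes, and in the macrophages at 91.0, 65.1, 61.6 and 61.7 in the Tim-4-CD4- subset, at 93.4, 94.5, 62.1 and 113 in the Tim-4-CD4+ subset, and at 73.4, 83.8, 93.7 and 93.5 in the Tim-4+CD4+ subset. The gut and blood libraries were again apart, by 1.88-fold (log2 0.91 ± 0.19, adjusted p = 0.00043), 2.45-fold (1.29 ± 0.19, 1.37e-05) and 2.32-fold (1.21 ± 0.19, 2.43e-05).

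The NAIP sensors went the other way from the NLRC4 with which they act. Naip2 was at 199, 219 and 205 CPM in monocytes, and at 96.5, 80.6, 85.9 and 90.0 in the Tim-4-CD4- subset, at 107, 93.9, 74.4 and 94.9 in the Tim-4-CD4+ subset, and at 60.9, 90.1, 80.3 and 87.4 in Tim-4+CD4+ libraries. Naip5 was at 137, 152 and 158 CPM in monocytes, and at 80.3, 68.2, 66.1 and 72.5, at 81.7, 94.4, 69.8 and 93.8, and at 81.9, 83.5, 74.1 and 88.8 in the 3 subsets in the same order. Every gut library lay below every blood library for both genes. Naip2 was 2.35-, 2.25- and 2.61-fold lower (log2 -1.23 ± 0.13, -1.17 ± 0.13 and -1.38 ± 0.13; adjusted p = 3.74e-07, 6.25e-07 and 7.51e-08), and Naip5 was 2.08-, 1.75- and 1.82-fold lower (-1.05 ± 0.11, -0.81 ± 0.11 and -0.86 ± 0.11; 2.85e-07, 5.30e-06 and 2.52e-06). Naip6, a further NAIP that binds flagellin, fell in all 3 subsets as well, from a mean of 135 CPM in monocytes to 59.6, 71.5 and 62.6. The ratio of Naip2 to Naip5 reads was 1.40 ± 0.08 (SD, n = 3) in monocytes and 1.23 ± 0.05, 1.09 ± 0.14 and 0.97 ± 0.16 (n = 4 each) in the subsets. Reads shared by the copies limit this ratio.

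Aim2, the DNA sensor, was the only member that was not called against monocytes in any subset in the fit over all 15 libraries. Its level was 70.5 to 75.4 CPM in monocytes, 61.6 to 75.1 in Tim-4-CD4-, 69.6 to 97.3 in Tim-4-CD4+ and 75.4 to 96.2 in Tim-4+CD4+ libraries, so the ranges touched or overlapped. The log2 fold changes were -0.06, 0.23 and 0.24, with 95% intervals of -0.31 to 0.19, -0.02 to 0.48 and -0.01 to 0.49 (adjusted p = 0.691, 0.0947 and 0.0773). Both CD4+ subsets were near the threshold. In Tim-4+CD4+ macrophages Aim2 was called with DESeq2 (0.29, adjusted p = 0.0332), relative log expression factors (0.29), upper-quartile factors (0.36), a filter of 1 CPM (0.305), thinned counts (0.304), and without Tim-4-CD4- replicate 2 (0.27), Tim-4-CD4+ replicate 3 (0.27) or 4 (0.27), or Tim-4+CD4+ replicate 3 (0.33). In the Tim-4-CD4+ subset it was called with upper-quartile factors (0.31, adjusted p = 0.0434) and without Tim-4-CD4+ replicate 3 (0.33) or Tim-4+CD4+ replicate 1 (0.25). Upper-quartile factors also moved the median over all genes against monocytes, from 0.11 to 0.19 in Tim-4-CD4+ and from 0.10 to 0.21 in Tim-4+CD4+ macrophages. In Tim-4+CD4+ macrophages it was 0.24 with DESeq2, 0.15 with relative log expression factors, 0.12 with thinned counts and 0.009 with the filter of 1 CPM.

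The adaptor and caspase-1 were lower in gut than in blood. Pycard was at 93.9, 81.6 and 76.8 CPM in monocytes, and at 34.5 to 45.6 in Tim-4-CD4-, 35.8 to 42.3 in Tim-4-CD4+ and 32.1 to 41.0 in Tim-4+CD4+ libraries. No gut library came near the blood level. Pycard was 2.01-, 2.24- and 2.37-fold lower (log2 -1.01 ± 0.11, -1.16 ± 0.11 and -1.24 ± 0.11; adjusted p = 6.99e-07, 1.06e-07 and 4.14e-08). Casp1 was at 110, 82.2 and 83.3 CPM in monocytes, and at 43.5 to 50.7, 47.6 to 53.1 and 44.98 to 53.4 in the subsets. It was 1.93-, 1.81- and 1.92-fold lower (log2 -0.95 ± 0.10, -0.85 ± 0.10 and -0.94 ± 0.10; adjusted p = 5.09e-07, 1.53e-06 and 4.36e-07). The ratio of Nlrp3 to Pycard reads, which has no correction for length, was 1.12 ± 0.19 (SD, n = 3) in monocytes and 9.73 ± 1.59, 8.04 ± 0.50 and 7.36 ± 1.13 (n = 4 each) in the subsets, so the sensor and its adaptor moved apart from blood to gut.

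Casp4 and Gsdmd, which act together when lipopolysaccharide reaches the cytosol, differed less. Casp4 was at 90.8, 59.8 and 68.1 CPM in monocytes, and at 52.8 to 61.7 in Tim-4-CD4-, 51.3 to 59.6 in Tim-4-CD4+ and 47.1 to 57.1 in Tim-4+CD4+ libraries. It fell by 0.31 ± 0.12, 0.38 ± 0.12 and 0.49 ± 0.12 on the log2 scale (adjusted p = 0.0309, 0.0103 and 0.00159). Monocyte replicate 1 carried much of this: without it the log2 fold changes were -0.10 (adjusted p = 0.433), -0.16 (0.194) and -0.27 (0.0325), and the first was also lost without Tim-4-CD4- replicate 1 or 2. The ratio of Casp1 to Casp4 reads was 0.81 ± 0.06, 0.91 ± 0.02 and 0.92 ± 0.03 in the subsets (SD, n = 4 each), against 1.27 ± 0.09 (n = 3) in monocytes.

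Gsdmd was at 180, 124 and 140 CPM in monocytes. It was at 102, 101, 98.8 and 99.6 CPM in Tim-4-CD4-, at 100.3, 112, 109 and 107 in Tim-4-CD4+, and at 152, 127, 108 and 127 in Tim-4+CD4+ libraries. Both Tim-4- subsets lay below every monocyte library, whereas the Tim-4+CD4+ libraries overlapped with them. The difference from monocytes was 1.47-fold in Tim-4-CD4- (log2 -0.56 ± 0.12, adjusted p = 0.00060) and 1.38-fold in Tim-4-CD4+ macrophages (-0.47 ± 0.12, 0.00226), and in Tim-4+CD4+ macrophages it was not called (-0.21, 95% interval -0.46 to 0.05, adjusted p = 0.133). Without monocyte replicate 1 these were -0.37 (adjusted p = 0.0115), -0.28 (0.0482) and -0.01 (0.943). Without Tim-4+CD4+ replicate 1 the last was called (-0.28, 0.0330). In bulk samples such as these, fewer cells with a transcript and less transcript per cell cannot be told apart.

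**Figure D2:**
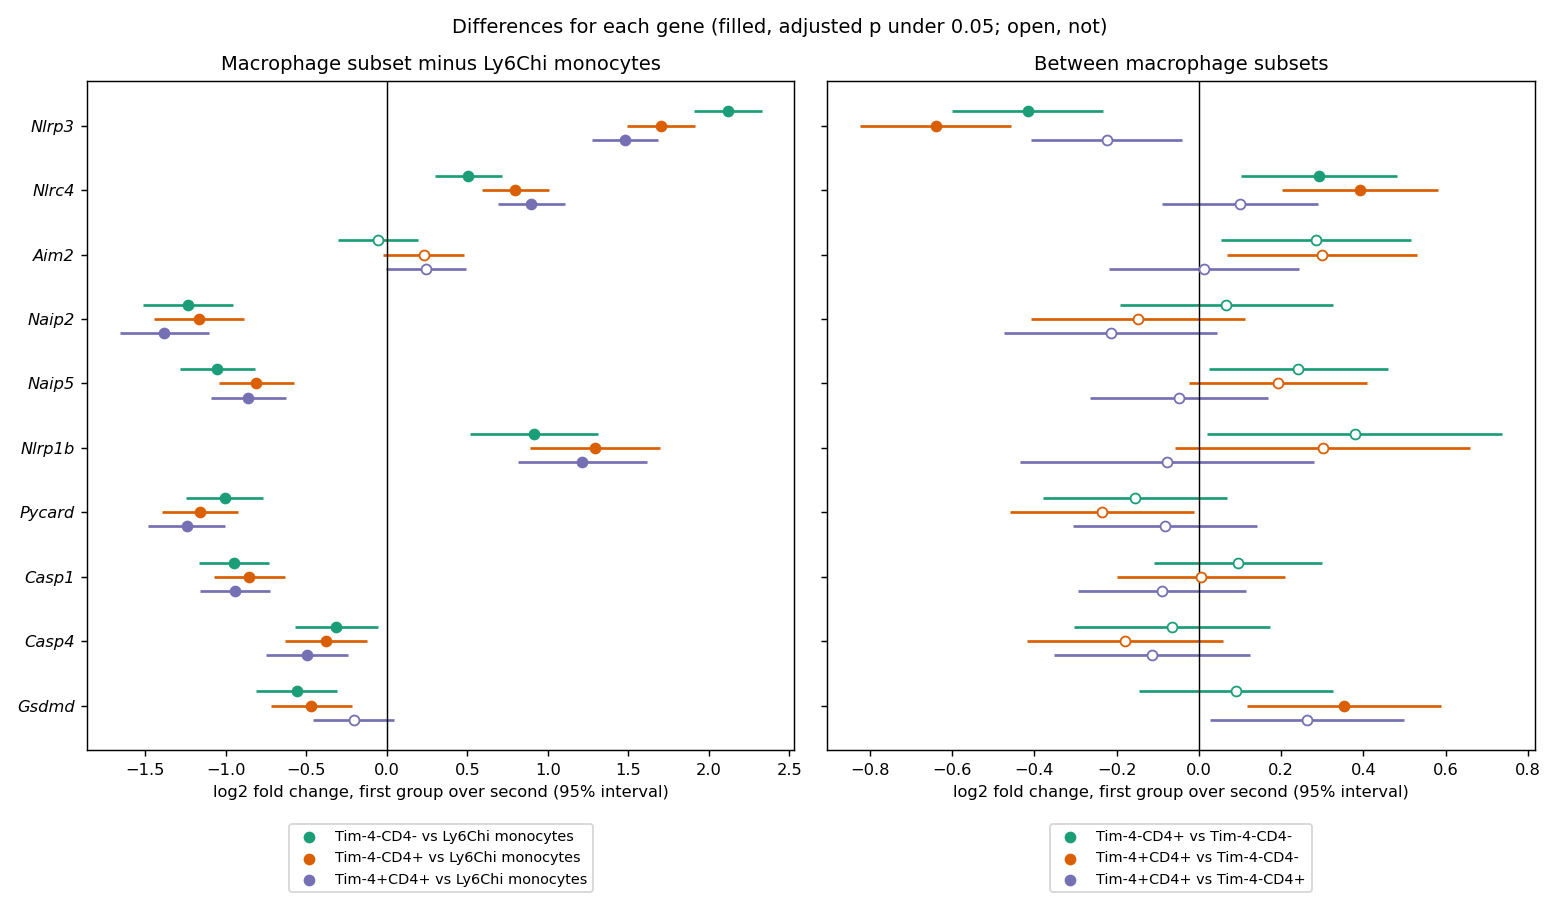
Log2 fold change of each gene in the 6 comparisons, first group over second, with its 95% interval. Filled points passed an adjusted p of 0.05 and open points did not. Left, each subset against monocytes, with 8 or 9 filled points of 10 per subset. Right, subset against subset, with Nlrp3 and Nlrc4 filled in both comparisons with Tim-4-CD4- macrophages, Gsdmd in 1, and no gene filled between the CD4+ subsets.

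Monocyte replicate 1 stood apart from the other monocyte libraries in genes that interferon induces. Gbp2, which helps to open bacterial vacuoles and membranes to the cytosolic sensors, was at 327 CPM in it against 75.4 and 88.8 in the others. Irf1, the transcription factor that drives guanylate-binding protein genes and others of this pathway, was at 530 against 168 and 214 CPM. Gbp3 (244 against 93.2 and 123), Gbp5 (116 against 31.1 and 38.5), Gbp7 (140 against 63.5 and 79.0), Gm12250, also called Irgb10 (82.8 against 32.5 and 36.7), and Il18bp (14.7 against 2.42 and 2.90) were all at their highest there. Of the 10 genes, Casp1, Casp4, Gsdmd and Pycard were highest in this library, Nlrp3, Nlrc4, Naip2 and Naip5 were lowest, and Aim2 and Nlrp1b lay between the others. For the 10 genes, differences from monocytes are therefore given without it wherever it changed a call. For the further pathway genes, the counts of calls without it are given, and the values for some.

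**Figure D3:**
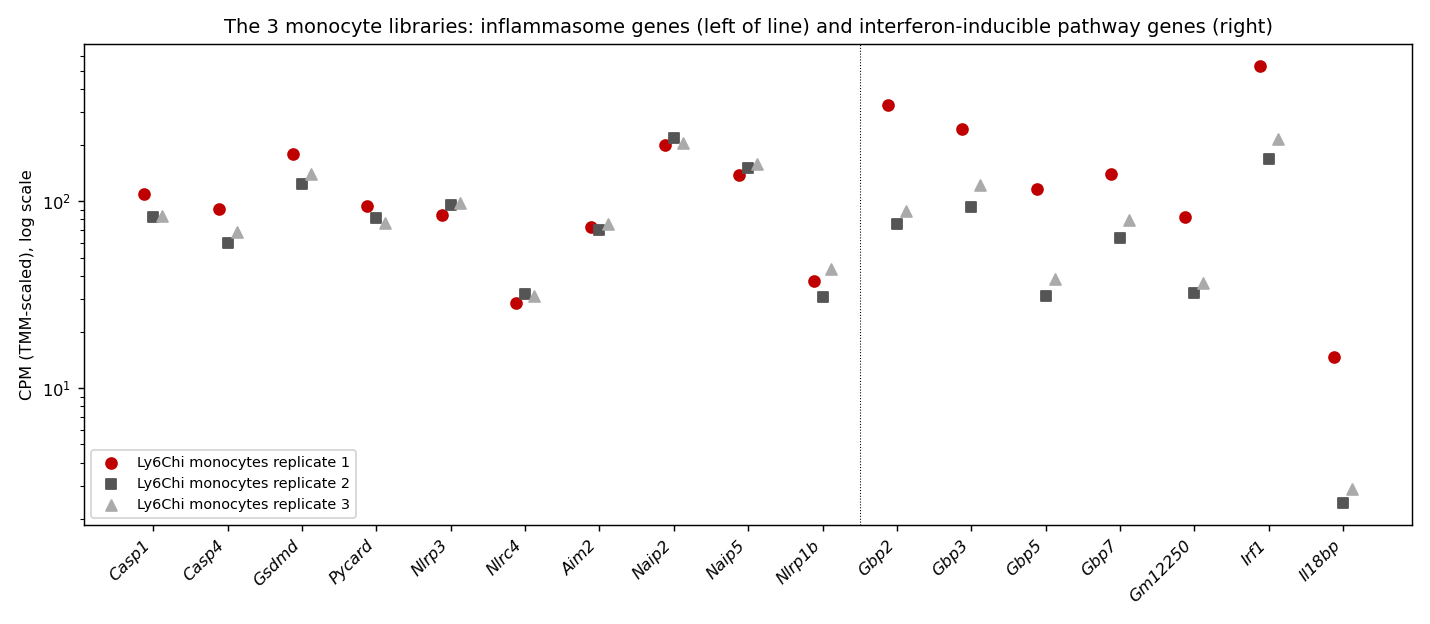
Level of the 10 genes (left of the dotted line) and of 7 interferon-inducible pathway genes (right) in the 3 monocyte libraries, in TMM-scaled CPM on a log axis. Replicate 1 (red circles) lies above the others for all 7 genes on the right and for Casp1, Casp4, Gsdmd and Pycard on the left, and not for the 6 sensors.

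The second comparison asks whether the macrophage subsets differ from each other. Most of the 10 genes did not pass the test between subsets. Nlrp3 was highest in Tim-4-CD4- macrophages and Nlrc4 was lowest in them, and Gsdmd was higher in Tim-4+CD4+ than in Tim-4-CD4- macrophages. In the Tim-4-CD4+ subset 2 of 10 genes were called against the Tim-4-CD4- subset, 1 higher and 1 lower, where 10.1% of all genes were called (4.52% higher, 5.53% lower). In the Tim-4+CD4+ subset 3 of 10 were called against the Tim-4-CD4- subset, 2 higher and 1 lower, where 23.1% were (11.3% and 11.9%). Between the CD4+ subsets edgeR called 0 of 10, where 3.41% of genes were called (2.07% higher, 1.34% lower): 2 had an unadjusted p under 0.05, and DESeq2 also called 0. The libraries did not overlap for 2 genes in the first of these comparisons (1 above, 1 below), for 4 in the second (3 above, 1 below) and for 1, below, in the third. Over all genes they did not overlap for 19.1% (9.16% above, 9.91% below), 26.4% (12.5% and 13.8%) and 9.63% (5.51% and 4.12%).

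Against the Tim-4-CD4- subset, Nlrp3 fell by 0.42 ± 0.09 on the log2 scale in Tim-4-CD4+ macrophages (1.33-fold, adjusted p = 0.00471) and by 0.64 ± 0.09 in the Tim-4+CD4+ subset (1.56-fold, 4.42e-05). Both differences kept their call without each library in turn. The further difference between the CD4+ subsets was not called (-0.22, 95% interval -0.41 to -0.04, adjusted p = 0.225), though each Tim-4+CD4+ library lay below each Tim-4-CD4+ library. Over the same subsets, edgeR called 0 of the 8 dissociation genes in the first comparison and 1 of 8, lower, in the second. Ordered by falling Nlrp3, the subsets held mean Egr1 of 3835, 3198 and 2448 CPM and mean Dusp1 of 2673, 2319 and 2092. By means alone, Jun had the same order. Hspa1a (275 ± 185, 299 ± 183 and 338 ± 198 CPM, SD, n = 4 each) and Hspa1b (283 ± 293, 304 ± 282 and 356 ± 318) had the opposite order. Their libraries overlapped widely between the subsets. Fos, Fosb and Junb followed neither direction. The part of dissociation in these Nlrp3 differences was not tested.

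Nlrc4 went the opposite way, with a log2 fold change of 0.29 ± 0.09 in Tim-4-CD4+ (1.22-fold, adjusted p = 0.0499) and 0.39 ± 0.09 in Tim-4+CD4+ macrophages (1.31-fold, 0.00429) over Tim-4-CD4- macrophages. The first was at the threshold and was lost with a replicate block by the title numbers (adjusted p = 0.0779) and in 9 of the 15 fits without a library, among them those without any 1 of the 4 Tim-4-CD4- libraries, whereas its value stayed between 0.27 and 0.34. The second kept its call in all 15. The ratio of Nlrp3 to Nlrc4 reads, in which scaling cancels, was 9.26 ± 0.74 in the Tim-4-CD4- subset, 5.68 ± 0.23 in the Tim-4-CD4+ subset and 4.56 ± 0.30 in the Tim-4+CD4+ subset (SD, n = 4 each), without overlap of the libraries, and 3.03 ± 0.10 in monocytes (n = 3). On this ratio the Tim-4+CD4+ macrophages lay nearest to the monocytes.

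Gsdmd had a log2 fold change of 0.35 ± 0.11 in Tim-4+CD4+ over Tim-4-CD4- macrophages (1.28-fold, adjusted p = 0.0297). Tim-4+CD4+ replicate 1 was the highest library, and without it the value was 0.27 and no longer called. The call was also lost without any 1 of the 4 Tim-4-CD4- libraries or without Tim-4+CD4+ replicate 2 or 4, at values of 0.35 to 0.37. Aim2 was close to the threshold in the same comparison, with a log2 fold change of 0.30 ± 0.11 (adjusted p = 0.0591), and it was called with DESeq2 (0.32, 0.0287), with relative log expression factors (0.32), with upper-quartile factors (0.35), with a filter of 1 CPM (0.33), with thinned counts (0.33) and without Tim-4-CD4+ replicate 3 (0.31) or 4 (0.31) or Tim-4+CD4+ replicate 3 (0.37). Against the same subset, Tim-4-CD4+ macrophages passed without their replicate 3 (0.37, 0.0338). The lowest Tim-4+CD4+ library and the highest Tim-4-CD4- library nearly met, at 75.4 and 75.1 CPM. In this comparison 4 of 5 mesenchymal markers were higher in Tim-4+CD4+ macrophages, with a summed level of 98.4 to 138 CPM against 59.6 to 90.1. Of 10 epithelial markers 4 were higher and 1 lower, and of 6 dendritic cell markers 2 were lower (104.7 to 138 CPM against 118 to 188). In Tim-4-CD4+ macrophages, against the same subset, 0 of 5 mesenchymal markers were called, 3 of 6 T cell markers were higher, and 2 of 6 dendritic cell markers were lower. Of 10 epithelial markers 3 were higher and 1 lower there too. In both comparisons with Tim-4-CD4- macrophages, 2 of 4 monocyte markers were lower and 1 of 3 endothelial markers was higher. The part of these markers in the differences between subsets was not tested.

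The other genes were not called between subsets over all libraries, and their intervals show how much of a difference these data leave room for. For Casp1 the 95% intervals of the 3 log2 fold changes ran from -0.29 to 0.30, for Casp4 from -0.42 to 0.17 and for Pycard from -0.46 to 0.14. Pycard was called lower in the Tim-4+CD4+ subset than in the Tim-4-CD4- subset without Tim-4-CD4- replicate 2 (-0.31, adjusted p = 0.0445) or without Tim-4+CD4+ replicate 1 (-0.31, 0.0358). For Naip2 they ran from -0.47 to 0.33, for Naip5 from -0.27 to 0.46 and for Nlrp1b, the most variable, from -0.44 to 0.74. Tim-4-CD4+ replicate 3 was the lowest of its group for Aim2 (69.6 CPM), Naip2 (74.4), Naip5 (69.8), Nlrp1b (62.1), Nlrc4 (48.0) and Casp1 (47.6). Without it, Aim2 (log2 0.37), Naip5 (0.32), Nlrp1b (0.52) and Nlrc4 were all called higher in Tim-4-CD4+ than in Tim-4-CD4- macrophages, so that 5 of 10 genes were called instead of 2.

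To compare levels between genes, counts were divided by the length of the union of exons of each gene, as RPKM. In monocytes Gsdmd (62.2 ± 11.99 RPKM, SD, n = 3) and Casp1 (61.3 ± 10.5) stood highest with overlapping ranges, followed by Naip2 (42.8 ± 2.1) and Naip5 (28.6 ± 2.0). Nlrp3 (22.9), Pycard (22.1), Aim2 (20.8) and Casp4 (19.6) followed, each overlapping with its neighbor, and Nlrc4 (6.37) and Nlrp1b (5.89) were lowest, also with overlap. In all 3 macrophage subsets Nlrp3 was the highest of the 10, at 99.3 ± 10.2, 74.4 ± 3.6 and 63.7 ± 4.0 RPKM (n = 4 each), ahead of Gsdmd (42.2 ± 0.56, 44.96 ± 2.02 and 53.9 ± 7.6), Casp1 (31.8, 33.9 and 31.9) and Aim2 (20.01, 24.4 and 24.6). In Tim-4+CD4+ macrophages the ranges of Nlrp3 and Gsdmd overlapped. From Naip2 down to Pycard and Nlrc4, at 18.2 to 9.04 RPKM in Tim-4-CD4-, 19.1 to 9.91 in Tim-4-CD4+ and 16.4 to 9.35 in Tim-4+CD4+ macrophages, neighbors overlapped except Naip2 and Casp4 in Tim-4-CD4- macrophages. These ranks rest on the length chosen: with the longest transcript in place of the exon union, 7 genes changed rank in monocytes and 4 to 6 in the subsets. In Tim-4+CD4+ macrophages Gsdmd then stood above Nlrp3 (71.6 against 64.3 RPKM), as it did with coding length (87.8 against 83.4). With coding length, an alternative chosen after seeing the data, Pycard went to the first place in monocytes (145 RPKM) and to 72.3, 65.04 and 61.4 RPKM in the subsets, and Nlrp3 to rank 8 in monocytes (29.9).

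Further genes of the pathway were taken as a list of 33, grouped by function, of which 32 were tested (Nlrp12 was too low). Against monocytes 9 were higher and 12 lower in Tim-4-CD4- macrophages (background 37.3% higher and 28.1% lower), 11 and 13 in the Tim-4-CD4+ subset (39.1% and 30.7%), and 12 and 14 in Tim-4+CD4+ macrophages (39.5% and 31.3%). Their median log2 fold changes were -0.21, -0.19 and -0.17, and Il1a and Nlrp6, with almost no monocyte reads, lie above the median at any floor. Without monocyte replicate 1 the counts were 11 higher and 8 lower, 12 and 11, and 12 and 14.

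Il1b and Il1a, of the 3 cytokine substrates, rose steeply from blood to gut, and Il18 did not. Il1b, the precursor that caspase-1 matures, was at 47.0, 19.9 and 42.0 CPM in monocytes, at 3411 to 4214 in Tim-4-CD4-, 2631 to 3427 in Tim-4-CD4+ and 2648 to 3592 in Tim-4+CD4+ libraries. That was a log2 fold change of 6.70 ± 0.28, 6.45 ± 0.28 and 6.33 ± 0.28 over monocytes (adjusted p = 2.53e-12, 2.86e-12 and 3.07e-12). Il1a, an alarmin that signals without caspase-1, had 2, 4 and 0 reads in the monocyte libraries and 48.7 to 71.8, 25.1 to 32.0 and 24.9 to 37.2 CPM in the subsets. Il1a was lower in both CD4+ subsets than in Tim-4-CD4- macrophages, by 2.32-fold (log2 -1.21 ± 0.15, adjusted p = 7.10e-05) and 2.23-fold (-1.15 ± 0.15, 3.62e-05), and Il1b was not called between subsets. Il18, the other substrate, was low throughout, with means of 13.5 CPM in monocytes and 8.55, 10.5 and 11.6 in the subsets. It was lower in Tim-4-CD4- macrophages than in monocytes (-0.66 ± 0.17, adjusted p = 0.00299). The dissociation genes given beside Nlrp3 also move with the rises of Il1b and Il1a, and their part in these was not tested.

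Antagonists of these cytokines were also far higher in gut. Il1r2, the decoy receptor for interleukin-1, went from a mean of 2.75 CPM in monocytes to 114, 128 and 144 CPM in the subsets (log2 5.35 ± 0.25, 5.52 ± 0.25 and 5.68 ± 0.26). Il1rn, the receptor antagonist, was at 26.8, 15.2 and 16.6 CPM in monocytes, at 180 to 251 in Tim-4-CD4-, 133 to 169 in Tim-4-CD4+ and 88.2 to 122 in Tim-4+CD4+ libraries (log2 3.44 ± 0.20, 2.93 ± 0.19 and 2.41 ± 0.19). The rise of Il1b was larger: the ratio of Il1b to Il1rn reads was 1.86 ± 0.61 (SD, n = 3) in monocytes. In the subsets it was 17.9 ± 0.99, 21.5 ± 3.5 and 28.4 ± 5.6 (n = 4 each). Il1rn also differed within the gut. Its levels in the subsets did not overlap: Tim-4+CD4+ macrophages held 2.04-fold less than Tim-4-CD4- (log2 -1.03 ± 0.16, adjusted p = 0.00015), and the steps in between were not called (-0.51, 0.0516, and -0.52, 0.0935). Il18bp, which neutralizes interleukin-18, ran the other way, at means of 46.0, 80.8 and 102 CPM, and was 2.22-fold higher in Tim-4+CD4+ than in Tim-4-CD4- macrophages (1.15 ± 0.37, adjusted p = 0.0339). That last call was lost in 6 of the 15 fits without a library, although the values of 42.3 to 51.5 and 88.6 to 123 CPM lay far apart. The ratio of Il18 to Il18bp reads was 0.18 ± 0.01, 0.13 ± 0.004 and 0.11 ± 0.01 in the subsets (SD, n = 4 each), against 3.40 ± 1.97 (n = 3) in monocytes. The part of the dissociation response in the rises of Il1rn, Il1r2 and Il18bp was not tested.

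**Figure D4:**
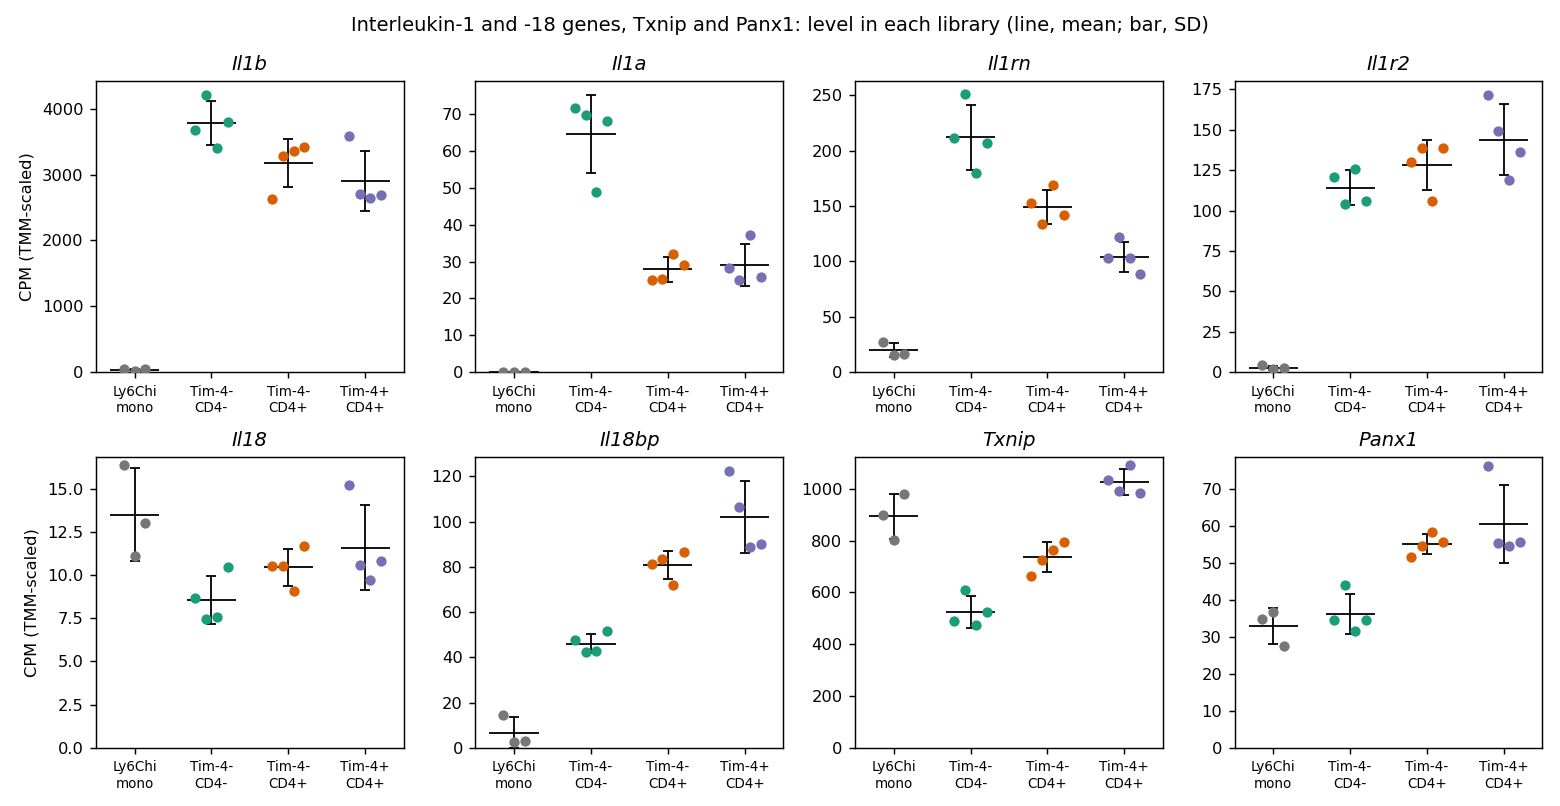
Level of Il1b, Il1a, Il1rn, Il1r2, Il18, Il18bp, Txnip and Panx1 in each library, in TMM-scaled CPM on linear axes from 0, with group means (lines) and SD (bars). Il1b, Il1rn, Il1r2 and Il18bp are higher in every gut library than in every monocyte library. Within the gut, Il1a and Il1rn are highest in Tim-4-CD4- macrophages and Il18bp and Txnip in Tim-4+CD4+ macrophages.

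Of the 14 genes for licensing and ligand access, Txnip, which binds thioredoxin and has been linked to NLRP3 activation, separated the subsets most steadily. It was at 491, 610, 472 and 523 CPM in Tim-4-CD4-, at 663, 727, 764 and 796 in Tim-4-CD4+, and at 1033, 991, 1092 and 982 in Tim-4+CD4+ libraries, with 803 to 979 in monocytes. The subsets did not overlap, and all 3 steps were called: 1.41-fold to the Tim-4-CD4+ subset (log2 0.49 ± 0.09, adjusted p = 0.00257), 1.39-fold from there to the Tim-4+CD4+ subset (0.47 ± 0.09, 0.00735), and 1.96-fold across both (0.97 ± 0.10, 1.35e-06). Panx1, a channel that releases ATP, was at 31.5 to 44.0 CPM in Tim-4-CD4-, 51.6 to 58.2 in Tim-4-CD4+ and 54.5 to 76.2 in Tim-4+CD4+ libraries. It was 1.52- and 1.67-fold higher in the CD4+ subsets than in Tim-4-CD4- macrophages (log2 0.61 ± 0.13 and 0.74 ± 0.13; adjusted p = 0.00515 and 0.00043). P2rx7, the ATP-gated channel upstream of NLRP3, rose from a mean of 91.2 CPM in monocytes to 227, 252 and 245 CPM (log2 1.31 ± 0.12, 1.46 ± 0.12 and 1.42 ± 0.12), and was not called between subsets. Nek7, the NLRP3 partner, and Brcc3, its deubiquitinase, were at means of 125 to 137 and 14.1 to 19.8 CPM in the 4 groups, and of the 6 tests against monocytes only that of Brcc3 in Tim-4+CD4+ macrophages was called (-0.49, adjusted p = 0.00419).

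**Figure D5:**
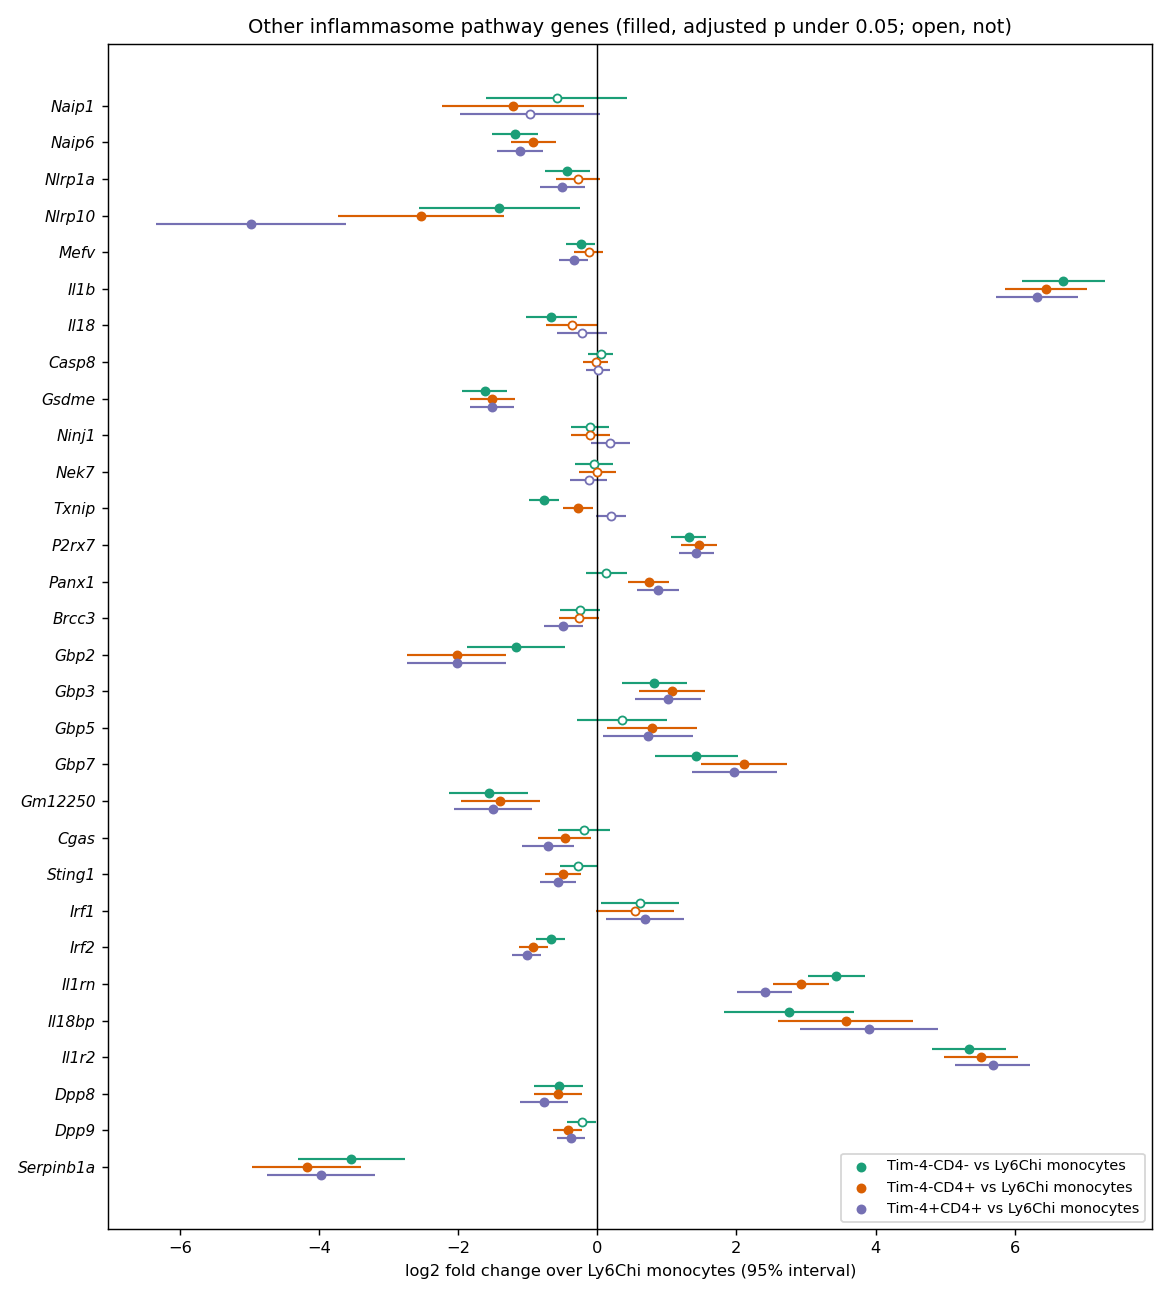
Log2 fold change over monocytes, with 95% intervals, for 30 of the pathway genes in the 3 macrophage subsets. Filled points passed an adjusted p of 0.05. Il1a and Nlrp6, with almost no monocyte reads, are left out. Il1b, Il1r2, Il18bp and Il1rn lie farthest to the right, and Serpinb1a lies farthest to the left in both Tim-4- subsets and Nlrp10 in the Tim-4+CD4+ subset.

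The guanylate-binding proteins were split. Gbp7 was higher in all 3 subsets than in monocytes (log2 1.42 ± 0.28, 2.11 ± 0.29 and 1.97 ± 0.29) and so was Gbp3 (0.82, 1.07 and 1.01). Gbp2 was lower (-1.17 ± 0.33, -2.02 ± 0.34 and -2.02 ± 0.34), and Gm12250 was lower as well (-1.56, -1.39 and -1.50). Monocyte replicate 1 weighed on all 4: without it Gbp2 was at -0.15 (adjusted p = 0.194), -0.995 and -0.991, and Gbp7 at 1.85, 2.54 and 2.402. Gbp5 and Irf1, not called in every subset with that library, were called higher in all 3 without it (Gbp5 1.21, 1.65 and 1.60; Irf1 1.31, 1.24 and 1.39). Irf2, a factor known to drive Gsdmd transcription, was lower in gut (-0.67 ± 0.10, -0.92 ± 0.10 and -1.01 ± 0.10; adjusted p = 1.39e-05, 3.11e-07 and 8.60e-08), and lower in Tim-4+CD4+ than in Tim-4-CD4- macrophages (-0.34 ± 0.09, adjusted p = 0.0114). In that last comparison Gsdmd was higher (0.35, adjusted p = 0.0297), and a link between Irf2 and Gsdmd was not tested. Cgas and Sting1, the cytosolic DNA pathway beside AIM2, were lower than in monocytes in both CD4+ subsets (Cgas -0.47 and -0.70; Sting1 -0.49 and -0.56), where Cgas in Tim-4-CD4+ macrophages lost its call without monocyte replicate 1 (-0.27, adjusted p = 0.218).

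Among the remaining sensors Nlrp6 had 0 reads in all 3 monocyte libraries, where a count of 0 allows up to 0.0213 to 0.0557 CPM, and 0.25 to 0.65 CPM in every macrophage library. Those levels are low, at 11 to 75 reads per library. Epithelial cells express Nlrp6, and 9 of 10 epithelial markers were also called higher in each subset than in monocytes, with a summed level of 14.3 to 34.7 CPM in gut libraries and 1.88 to 2.72 in blood; their part in the Nlrp6 reads was not tested. Nlrp10 was at 1.30 to 2.49 CPM in monocytes and at or under 0.10 CPM in all Tim-4+CD4+ libraries, with 0.42 to 1.27 in Tim-4-CD4- macrophages between them (log2 -3.57 ± 0.62 for the former over the latter, adjusted p = 0.00045). Mefv, which encodes pyrin, was at means of 153 CPM in monocytes and 130, 141 and 121 CPM in the subsets. It was called lower in Tim-4-CD4- (log2 -0.23, adjusted p = 0.0460) and Tim-4+CD4+ macrophages (-0.34, 0.00558), and without monocyte replicate 1 neither was called (0.250 and 0.0572).

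Of the other effectors and restraints, Gsdme, which encodes another pore-forming gasdermin, was lower in all 3 subsets (log2 -1.62 ± 0.15, -1.51 ± 0.15 and -1.51 ± 0.15). Casp8, at means of 126 to 133 CPM, was not called in any comparison by edgeR. Serpinb1a, an inhibitor of inflammatory caspases and neutrophil proteases, went from 18.2 to 24.8 CPM in monocytes to 0.40 to 3.06 CPM in gut libraries (-3.54 ± 0.36, -4.18 ± 0.37 and -3.98 ± 0.37). Serpinb1a is abundant in neutrophils, and Csf3r, the most abundant neutrophil gene of the list, was likewise lower in gut, at a mean of 454 CPM in monocytes and 161 to 189 in the subsets, whereas S100a8 and S100a9 were at or under 1.66 CPM in every library; the part of neutrophil RNA in the Serpinb1a difference was not tested. Dpp8 and Dpp9, the peptidases that hold NLRP1 in check, were lower in gut (Dpp8 -0.56, -0.56 and -0.77; Dpp9 -0.42 and -0.38 in the CD4+ subsets), while Nlrp1b was higher. Nlrp1a, of the other sensors, went the other way from Nlrp1b. It was lower in Tim-4-CD4- (-0.43, adjusted p = 0.0201) and Tim-4+CD4+ macrophages (-0.50, 0.00713), and not called in the Tim-4-CD4+ subset (-0.28, 0.113).

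Between subsets, 3 of the 32 pathway genes were called in the Tim-4-CD4+ subset against the Tim-4-CD4- subset (Il1a, Txnip and Panx1), 8 where Tim-4+CD4+ macrophages were set against the same subset (Il1a, Il1rn, Nlrp10, Cgas and Irf2 lower; Txnip, Panx1 and Il18bp higher) and 2 between the CD4+ subsets (Txnip higher, Nlrp10 lower). Over all genes 10.1%, 23.1% and 3.41% were called. Of these pathway genes, Cgas and Il18bp in the second comparison and Nlrp10 in the third each lost their call in 5 to 7 of the 15 fits without a library. The pathway counts were 8, 12 and 2 without monocyte replicate 1 and 5, 10 and 2 without monocyte replicate 2. Without Tim-4+CD4+ replicate 1 they were 5, 7 and 2, and without Tim-4-CD4+ replicate 1, 2 or 4 the last was 1, as it was without Tim-4+CD4+ replicate 2, 3 or 4.

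The genes whose level followed the members most closely over the 12 macrophage libraries were named by Pearson's r of log2 CPM, among 11789 genes, for the 3 members called between subsets. For Nlrp3 they were Limd1 (r = 0.98), Flna (0.97) and Dgkd (0.96). For Nlrc4 they were Thap12 (0.97), Epm2a (0.96) and Atp8a1 (0.95), and for Gsdmd Sirt6 (0.98), Rgl2 (0.97) and Hps1 (0.97). The 12 points fall into 3 groups of 4 libraries, share their scaling, and were searched over many genes, so these values describe likeness of pattern only.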

How the data were processed

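The authors sorted live CD45+CD11b+CD64+MHCII+ cells without lineage markers or Ly6C from digested small intestine, and Ly6Chi monocytes from blood. They made TruSeq stranded mRNA libraries and sequenced pairs of 65-base reads. Reads were trimmed with Trimmomatic 0.36, aligned to GRCm38.p4 with STAR and counted per gene with HTSeq 0.6.1p1 against GENCODE vM11, per the methods and the submitters' processing notes. The deposited counts are raw counts of uniquely mapped reads. A further 15 columns of size-factor-normalized values were not used. The replicate numbers in titles and descriptions differ for Tim-4-CD4+ macrophages, and title numbers are used here.

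Counts were filtered with filterByExpr and scaled with TMM, and 1 quasi-likelihood fit over 15 libraries gave 6 comparisons (R 4.3.3, edgeR 4.0.16, limma 3.58.1), with Benjamini-Hochberg adjustment over 15802 genes and a threshold of 0.05. DESeq2 1.42.0, other scalings and filters, fits on the groups compared, thinned counts, replicate blocks and fits without each library were alternatives. The fits were tested on simulated data. RPKM used exon-union lengths of GENCODE M21 (GRCm38), which held 19421 of the 19456 identifiers. The log2 CPM behind correlations used a prior count of 2, and genes of at least 1 CPM. The limit for 0 reads is 3 counts. Intervals are 95% and, like that limit, do not cover amplification error, since reads carry no molecular identifiers. Figures used Python 3.11.15 and matplotlib 3.10.9. The members and gene lists were chosen with earlier results of these data known. Some listed genes are not reported here. All members and the other pathway genes may be named, and the 3 nearest genes of each member called between subsets.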

Additional observations from a re-analysis of the deposited data

Results flagged for a closer look

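In 119 gene and group pairs of 4 libraries, Dixon's criterion for a single value far from the others picked out 12, where chance alone picks out about 5% of groups. Tim-4+CD4+ replicate 1 accounted for 6 of them: it was lowest in its group for Nlrp3 (234 CPM, others 266 to 268), Nek7 (92.9, others 133 to 138) and Dpp8 (56.9, others 103 to 111), and highest for Casp1 (53.4, others 44.98 to 46.3), Il1b (3592, others 2648 to 2704) and Panx1 (76.2, others 54.5 to 55.6). Tim-4-CD4- replicate 1 was high for Nlrp1b (91.0 CPM, others 61.6 to 65.1) and low for Gbp3 (251, others 277 to 279), and Tim-4-CD4- replicate 3 was low for Il1a (48.7, others 68.1 to 71.8). In Tim-4-CD4+ macrophages, replicate 2 was high for Pycard (42.3 CPM, others 35.8 to 36.6) and Casp8 (135, others 123 to 124), and replicate 3 was low for Naip6 (53.8, others 75.2 to 79.2). The 3 monocyte libraries are too few for this criterion.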

How the results depend on the processing

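Of the log2 fold changes of the 10 genes under all alternatives, 1376 kept their direction and their side of the threshold, 26 gained a call, 25 lost one and 13 changed sign. All that changed sign were not called in either case, and the cause was not tested: Aim2 in Tim-4-CD4- against monocytes (0.0082 with upper-quartile factors, -0.076 to 0.015 without each library), Casp1 in Tim-4+CD4+ against Tim-4-CD4- macrophages (-0.00035 with a replicate block by the title numbers, -0.0498 to 0.047 without each library), Naip2 in Tim-4-CD4+ against Tim-4-CD4- (-0.0081 to 0.16), and, between the CD4+ subsets, Aim2 (-0.0615 to 0.0905), Naip5 (-0.12 to 0.0102) and Nlrp1b (-0.21 to 0.0539). Casp4 in Tim-4-CD4- macrophages against monocytes also lost its call with upper-quartile factors (-0.24), in the fit on those groups alone (-0.27) and with thinned counts (-0.26).

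In the Tim-4-CD4+ subset against the Tim-4-CD4- subset the number of the 10 genes called higher, 1, was 0 without a filter, 0 with a replicate block by the title numbers, and 0 to 4 without each library, and the genes called ran from 1033 to 2203 (lowest without Tim-4-CD4+ replicate 4). For the Tim-4+CD4+ subset against the Tim-4-CD4- subset 1 to 3 were called higher and 1 to 2 lower without each library. Between the CD4+ subsets DESeq2 called 917 genes against 539. Same-numbered macrophage libraries showed little joint deviation. By title numbers their mean correlation was -0.02, with 2 of 12 pairs over 0.1, against 0.007 and 8 of 36 for different numbers. By description numbers it was 0.03, with 4 of 12 pairs over 0.1, against -0.01 and 6 of 36. The numbers were therefore not taken as pairs, which does not show that no sort was shared. The replicate block changed no other count of the 10 genes. Of the nearest genes of Nlrp3, 1 of 3 was kept with Spearman's rho and 0 over all 15 libraries. For Nlrc4 1 was kept over 15 libraries, and for Gsdmd 0 under either. With coding length in place of exon length, an alternative chosen after seeing the data, 8 or 9 genes changed rank by RPKM. At 1660 reads or more per gene and library, counting error is small beside the spread between libraries.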
